A study of Mus musculus with 912 samples.

Results

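The genes that build synaptic vesicles and release their content were followed across single nuclei of the mouse hippocampus. Members were all annotated genes whose symbol is Syt, Sv2, Stx, Stxbp, Vamp, Cplx, Rims, Rab3, Unc13, Syn or Doc2 followed by a digit or letter and at most 1 further character, with Snap25, Bsn, Pclo, Syp, Sypl and Nsf. This rule reads symbols and no measured value, and it found 107 of the 42802 genes in the count tables. Of these, 76 belonged to the release and vesicle families. The other 31 shared only the prefix, among them Rab30 to Rab39, the nesprins Syne1 to Syne4, the synaptojanins Synj1 and Synj2, the spine apparatus protein Synpo, the synaptotagmin-like Sytl1 to Sytl5, and Synpr, which is a vesicle protein by function. Expression per transcript length was given for 106 members, all but Stxbp3.

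All nuclei came from wild-type female C57BL6 mice aged 7.75 to 9 weeks, and RNA was sequenced by SmartSeq2, which reads along whole transcripts. Hippocampal nuclei were stained for PROX1, CTIP2 and FOS, a protein that marks recently active neurons, and each was sorted and sequenced on its own. The nuclei were deposited in 2 tables. In the first table, mice stayed in the home cage (HC, 7 mice) or spent 15 min in an environment new to them (NE) and were collected 1 h later (6 mice), and the authors assigned each nucleus to a cell type. The paper drew these types from clustering and a classifier run on the same expression values, with known cell type genes as a guide. The second table held only nuclei of the dentate gyrus (DG) that were positive for ARC, another product of recent activity, and so had no home cage nuclei of its own. Part of its FOS- nuclei came from mice at 4 h (2 mice) or 5 h (4 mice) after a single NE. Its other mice, the source of its remaining FOS- and of its FOS+ nuclei, entered a second environment 4 h after the first and were collected 1 h after it: the same environment again (A>A, 8 mice) or a different one (A>C, 4 mice). After quality filters 783 of 912 nuclei from 31 mice remained, with a median of 1251690 and a range of 142275 to 5885216 counts per nucleus.

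Neurotransmitter is packed in vesicles that carry SV2 proteins, synaptophysins and synapsins. Vesicles dock at an active zone built on RIM, Munc13 (Unc13 genes), Bassoon and Piccolo proteins. Fusion is driven by SNARE proteins, VAMPs on the vesicle and syntaxins with SNAP-25 on the target membrane, is timed by the calcium sensors of the synaptotagmin and Doc2 families, and is held in check by complexins and syntaxin-binding proteins. NSF then pulls used SNAREs apart. In the hippocampus, DG granule cells send mossy fibers to CA3, CA3 cells drive CA1, and interneurons that make vasoactive intestinal peptide (VIP) release GABA.

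Values are given per mouse, and the level of a gene is its mean log2(TPM + 1) over the nuclei of a mouse, where TPM is the share of transcripts corrected for gene length. FOS- nuclei of HC and 1 h mice supplied 50 nuclei of 3 mice for DG, 40 of 6 for CA1, 12 of 3 for CA3, 21 of 5 for Sub, 38 of 6 for VIP and 7 of 3 for Ivy, and 1 mouse each for Pvalb (2 nuclei) and Th (5 nuclei), named as in the labels. Defining markers followed the labels in part, though the labels were drawn from the same expression values, so this is no independent check. Prox1 stood at 5.26 and C1ql2 at 5.79 in DG, Wfs1 at 3.78 in CA1, Iyd at 4.21 in CA3, Lhx6 at 4.12 in Ivy and Pvalb at 8.48 in Pvalb nuclei. The vesicular glutamate transporter Slc17a7 stood at 7.33 in DG and 7.25 in CA1 but at 0.74 in VIP, whereas Gad2, which makes GABA, stood at 6.67 in VIP and 0.19 in DG. Of the Sub markers, Tshz2 stood at 4.15 in Sub and at most at 1.72 elsewhere, but Fn1 at 5.18 in Sub and 4.84 in CA1. Other markers were not particular to their type either. Erbb4, listed for Pvalb, stood at 3.65 there, 7.55 in Ivy and 5.80 in VIP, Nos1, listed for Ivy, at 2.58 there and 2.19 in CA3, and Mpped1, listed for CA1, at 4.50 there and 9.50 in the Pvalb mouse. Th nuclei held Tcf7l2 at 8.79 and Rora at 8.20 and Slc17a7 at 1.22. They also held markers listed for VIP or DG, Adarb2 at 8.76, Prox1 at 4.38, Vip at 3.51 and Calb2 at 2.12.

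Part of the VIP group went against its label on some markers. In HC replicate 2 and in 1 h replicate 1, each with 2 nuclei, the Vip gene had a count of 0 and Prox1 a count of 0, although Gad2 stood at 9.35 and 7.74. Gad1 stood at 8.25 and 2.04. Others on the VIP list were present, Htr3a at 3.91 and 7.33 and Adarb2 at 6.40 and 8.73. Sst stood at 8.70 and 1.28 (at most 1.38 in the other FOS- VIP sums). Npy, listed for Ivy, stood at 0 and 10.50 (at most 1.74 in the others). The sort labels list the nuclei of these 2 sums as PROX1-, while the nuclei of all other VIP sums were PROX1+. In the other 4 VIP mice Vip lay between 8.31 and 12.06. The edgeR comparisons with VIP are therefore given with and without these sums. In CA1, HC replicate 2 held 11026.5 CPM (counts scaled to library size) over the 4 oligodendrocyte markers, while the other 5 FOS- CA1 sums held 14.9 to 163.4. CA1, DG and PROX1+ VIP nuclei came from different mice and library dates, so cell type, mouse and date cannot be told apart in those comparisons.

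Release genes were expressed in every cell type. Between 55 (Pvalb) and 70 (CA3) of the 106 members lay above a level of 1, and between 11 (VIP) and 22 (CA3) lay above 5. The median of the members was 2.11 in DG, 2.02 in CA1, 2.51 in CA3 and 1.45 in VIP. Over the cell types with more than 1 mouse, the span between the highest and lowest type had a median of 1.89 log2 units, exceeded 2 for 51 members and exceeded 4 for 9. These 9 were Synpr, Sv2b, Synpo, Rims2, Syt5, Syt3, Stxbp2, Rims1 and Rab3b. Ivy was the highest or lowest type for Synpo, Rims2, Syt5, Syt3, Stxbp2 and Rims1. It had only 7 nuclei, in sums of 2 or 3 nuclei, all of 1 h mice. The spans of all genes are not given, so these counts stand without that background. The span of Rab3b (4.04) had VIP as its highest type, with the 2 highest VIP values in the PROX1- sums. Another 14 members, 7 of them release genes, stayed at or below 1 in every group: Cplx3, Cplx4, Doc2a, Rab31, Rab38, Rab39, Stx11, Syne3, Synm, Syt8, Syt9, Sytl1, Sytl3 and Vamp8.

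**Figure D1:**
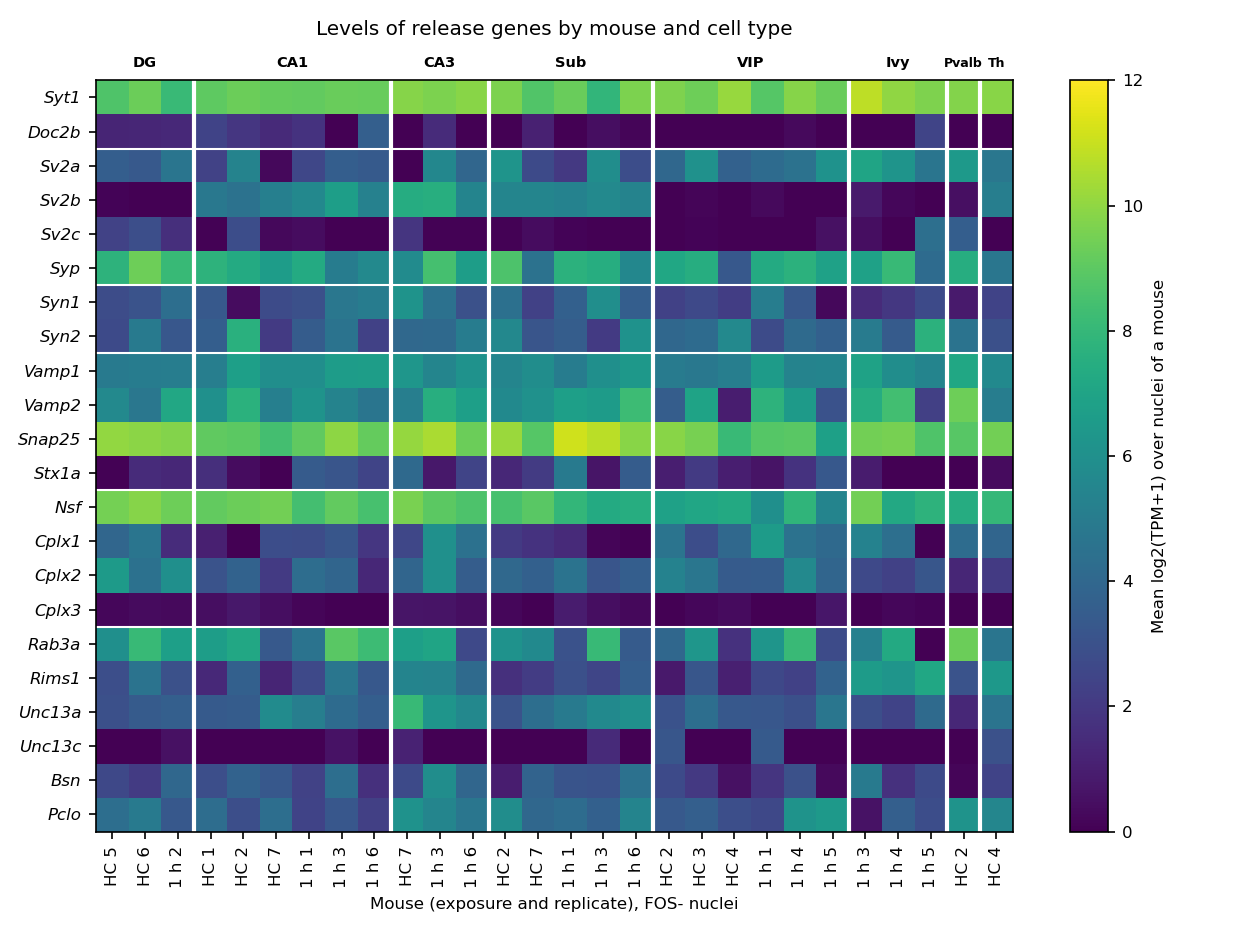
Heat map of 22 members fixed as examples of each role (rows) in each FOS- mouse sum of the first table (columns, grouped by cell type); color is the mean log2(TPM + 1). Syt1, Snap25 and Nsf are high in all columns, while Sv2b is bright in CA1, CA3, Sub and Th columns and dark in DG and VIP columns.

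Of the vesicle membrane proteins, the SV2 family split by cell type. SV2 proteins are transporter-like glycoproteins of the vesicle membrane, and SV2A binds the antiepileptic drug levetiracetam. The family's genes lie at chr3:96181151-96195521 (Sv2a, plus strand), chr7:75114894-75309262 (Sv2b, minus strand) and chr13:95954594-96132577 (Sv2c, minus strand; GENCODE vM21 on GRCm38). Since the family differed between types more than most, the stretch from 250 bases before to 50 bases after the RefSeq start (GRCm38.p6) is shown for each gene, 5′ to 3′ on the gene's strand, at chr3:96180977-96181276, chr7:75309213-75309512 (the first of 4 listed starts) and chr13:96132528-96132827. Capitals mark a match to TATAAA on either strand.
Sv2a: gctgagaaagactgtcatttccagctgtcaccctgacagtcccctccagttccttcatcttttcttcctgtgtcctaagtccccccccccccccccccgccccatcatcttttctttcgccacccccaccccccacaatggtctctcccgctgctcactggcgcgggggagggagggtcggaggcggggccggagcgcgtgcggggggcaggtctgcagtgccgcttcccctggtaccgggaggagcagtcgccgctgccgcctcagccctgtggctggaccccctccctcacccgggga
Sv2b: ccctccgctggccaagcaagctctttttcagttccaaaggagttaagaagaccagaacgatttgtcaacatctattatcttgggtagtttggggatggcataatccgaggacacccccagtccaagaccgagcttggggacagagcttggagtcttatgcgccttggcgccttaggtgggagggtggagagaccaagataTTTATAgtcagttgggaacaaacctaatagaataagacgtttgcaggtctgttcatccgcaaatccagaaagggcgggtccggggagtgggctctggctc
Sv2c: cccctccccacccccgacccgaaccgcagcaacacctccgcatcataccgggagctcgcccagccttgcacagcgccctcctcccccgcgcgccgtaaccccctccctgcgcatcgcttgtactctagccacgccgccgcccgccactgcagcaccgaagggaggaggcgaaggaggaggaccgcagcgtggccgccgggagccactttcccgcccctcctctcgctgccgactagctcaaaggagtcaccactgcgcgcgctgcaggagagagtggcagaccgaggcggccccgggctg
GC content was 68.0% for Sv2a, 51.3% for Sv2b and 71.7% for Sv2c, with 17, 10 and 32 CpG pairs. Over 32851 mouse promoters of the same length the medians were 52.7% and 7. TATAAA was present in 13.6% of them and matched only Sv2b. Neither TGACGTCA (the CRE motif, in 1.79% of promoters) nor TGANTCA (the AP-1 motif, in 7.81%) matched any of the 3 windows.

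Sv2b was present in the CA fields, in Sub and in Th and close to 0 in DG and VIP. In CA1 its level was 4.54, 4.80, 5.16, 5.26, 5.59 and 6.74 in the 6 mice, and 37 of 40 nuclei lay above 1. CA3 followed at 6.79 ± 1.20 (SD, n = 3), Sub at 5.45 ± 0.13 (SD, n = 5) and Th at 5.15 (1 mouse). In DG it was 0.11, 0 and 0, with 1 of 50 nuclei above 1, and in VIP it ran from 0 through a median of 0.02 to 0.32, with 1 of 38. The ranges of DG and VIP did not overlap with those of CA1, CA3 or Sub, while CA1, Sub and CA3 overlapped each other. Pooled over mice, Sv2b held 312 CPM in CA1 (14197 counts), 0.0765 CPM in DG (5 counts) and 0.354 CPM in VIP (8 counts). Sv2b also remained at or below 0.62 in every later DG sum, whatever the exposure.

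Sv2c, by contrast, was higher in DG than in most CA1 mice. In DG its level was 1.62, 2.38 and 2.90, with 18 of 50 nuclei above 1, whereas 5 of the 6 CA1 mice lay between 0 and 0.38. The sixth, HC replicate 2 with the high oligodendrocyte markers, stood at 2.82. In VIP it ran from 0 to 0.53, so that Sv2b and Sv2c were both low there. DG did not hold the highest values of all, since 1 Ivy mouse stood at 4.36 and the Pvalb mouse at 3.58. Sv2a, the most widespread of the 3, was expressed in all types, at 2.92 ± 1.69 (SD, n = 6) in CA1, 3.88 ± 0.70 (SD, n = 3) in DG, 4.78 ± 1.06 (SD, n = 6) in VIP and 5.97 ± 1.18 (SD, n = 3) in Ivy, and CA1, DG and VIP overlapped. The lowest Ivy mouse (4.69) lay just above the highest DG mouse (4.67).

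Synaptoporin and synaptophysin are related proteins of the vesicle membrane. Synpr, at chr14:13284780-13616340, stood at 7.69, 8.26 and 9.63 in DG and between 0 and 1.82 in CA1. In VIP it was 1.21, 7.36, 8.36, 9.22, 9.47 and 9.69, where the lowest value was the PROX1- sum of 1 h replicate 1. Syp, its widespread relative, stood at 8.39 ± 0.85 (SD, n = 3) in DG and 6.63 ± 1.06 (SD, n = 6) in CA1.

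**Figure D2:**
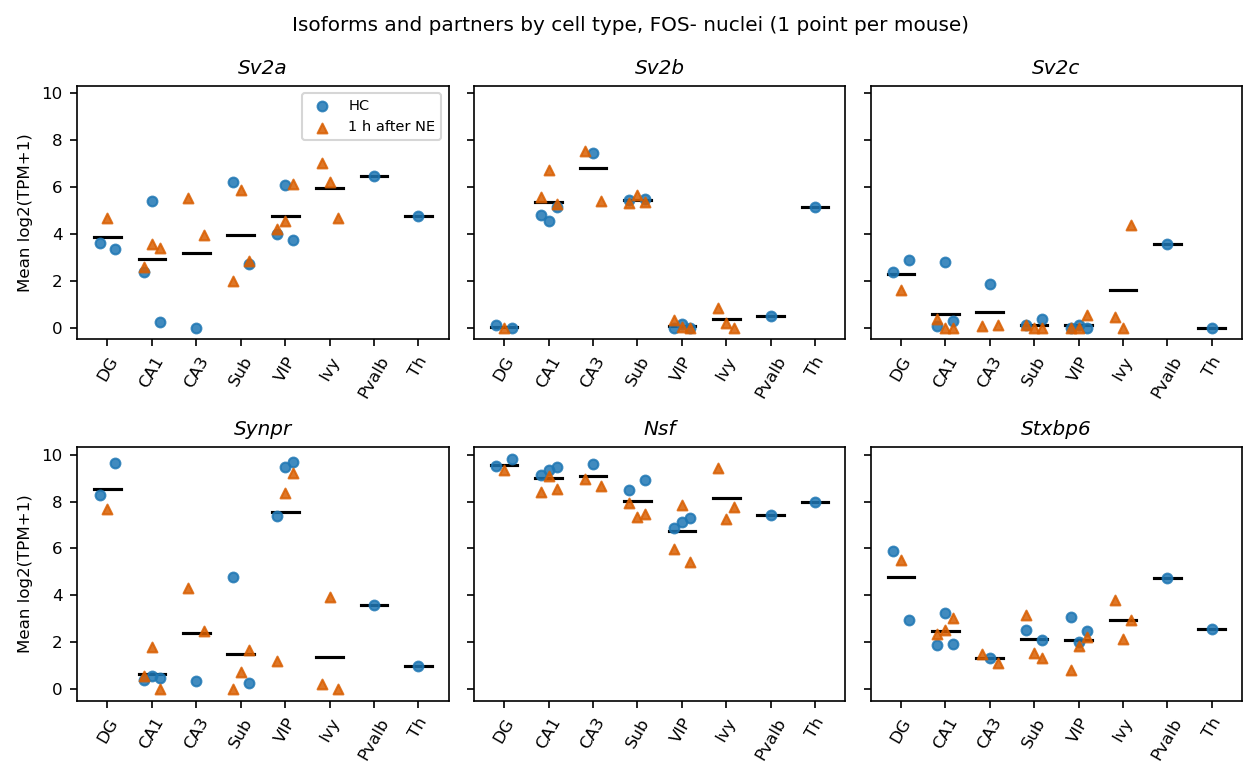
Level (mean log2(TPM + 1), vertical axes) of Sv2a, Sv2b, Sv2c, Synpr, Nsf and Stxbp6 per mouse in FOS- nuclei of 8 cell types; circles are HC mice, triangles 1 h mice, and bars the mean over mice. Sv2b lies near 0 in DG and VIP and between 4.54 and 6.74 in CA1, and Synpr is high in DG and in 5 of the 6 VIP mice.

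Of the calcium sensors, Syt1, the fast sensor of release, was high in every type: its mean ran from 8.72 in DG to 10.16 in Ivy, and in CA1 it was 9.18 ± 0.10 (SD, n = 6). Syt11, a relative that does not bind calcium in the same way, was similar in all types, from 6.49 in Pvalb to 7.68 in VIP. Others were uneven. Syt5 stood at 6.08 in DG and 1.54 in Ivy, Syt7, a slow sensor linked to asynchronous release, at 4.22 in DG, 4.23 in CA3, 0.95 in VIP and 0.31 in Ivy, and Syt10 at 2.65 in DG and 0 in VIP. Doc2b, a high-affinity sensor, stood at 1.86 ± 1.19 (SD, n = 6) in CA1, 1.30 ± 0.07 (SD, n = 3) in DG and 0.05 in VIP. Syt2, the fast sensor of many inhibitory synapses, reached 4.03 in the single Pvalb mouse and a mean of at most 0.91 elsewhere.

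Most of the core fusion machinery named here was high throughout. Snap25 stood at 9.90 ± 0.14 (SD, n = 3) in DG, 9.12 ± 0.50 (SD, n = 6) in CA1, 10.15 ± 0.88 (SD, n = 5) in Sub and 8.70 ± 1.10 (SD, n = 6) in VIP. Vamp2, the main vesicle SNARE of central synapses, ran from 4.80 in VIP to 6.67 in Sub (9.34 in the Pvalb mouse), and Vamp1 from 5.02 in DG to 6.17 in CA1 (7.15 in Pvalb). Stx1a, a syntaxin of the presynaptic membrane, was low, at 0.96 in DG, 1.85 in CA1 and 1.61 in VIP.

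Among the regulators, Cplx2 stood at 5.67 in DG and 3.07 in CA1, and Cplx1 at 3.38 in DG, 1.96 in CA1 and 4.46 in VIP. Cplx3 stayed at or below 1. The active zone genes were highest outside DG. Unc13a reached 6.65 in CA3, and Rims1 and Rims2 reached 6.67 and 6.03 in Ivy, against 3.49 and 1.17 in DG. Pclo stood at 5.43 in CA3 and 4.18 in DG, and Bsn at 4.18 and 2.90. Unc13c was at or below 1.10 in all types but Th (2.96). Of the Rab3 proteins, which tether vesicles to RIM, Rab3a stood at 6.94 in DG and 6.49 in CA1. Rab3b averaged 4.39 in VIP, yet its 2 highest values, 8.84 and 8.60, were those of the PROX1- sums and the other 4 mice lay between 0.35 and 4.68. Of the synapsins, which cluster vesicles, Syn2 stood at 3.63 in DG, 3.94 in CA1, 4.07 in VIP and 5.37 in Ivy, and Syn1 at 3.40, 3.20, 2.62 and 2.04, with its highest mean in CA3 (4.54).

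Counts summed per mouse were then compared between FOS- cell types by edgeR's quasi-likelihood test with Benjamini-Hochberg adjustment over 16617 genes, 92 of them members. The other 15 were below the filter on low counts. Folds are not quoted where a group had near 0 counts. Types were assigned from the same expression values, so tests of genes that mark a type are not independent of the grouping. Between DG and CA1, 1 member differed: Sv2b was lower in DG (adjusted p = 0.00111), against 0.175% of all genes called. Another 12 members had an unadjusted p under 0.05 (13 of 92 in all, with 7.59% of all genes), including Synpr (adjusted p = 0.22) and Stxbp6 (adjusted p = 0.25), both with higher values in DG. The median log2 fold change of the members was 0.41, against -0.03 for all genes. Sv2b was not called when HC nuclei alone were used (adjusted p = 0.639). DESeq2 called 5 members (beside 2.3% of all genes) and limma 3 (beside 0.666%), with Sv2b and Synpr among them in both.

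Between VIP and CA1, Sv2b (adjusted p = 5.75e-05) and Synj2 (adjusted p = 0.0491) were lower in VIP, 2 of 92 members beside 0.608% of all genes. Synj2, a phosphatase that acts in vesicle uncoating, stood at 0, 2.10, 2.87, 2.90, 3.72 and 4.14 in CA1 and between 0 and 0.58 in VIP, so the lowest CA1 mouse overlapped with VIP. Without the PROX1- sums Sv2b kept its call (adjusted p = 0.000259) and Synj2 lost it (adjusted p = 0.162), with 0.523% of all genes called. With HC nuclei alone neither was called (adjusted p = 0.247 and 0.557). Stxbp5l, a tomosyn that competes for syntaxin, had a log2 fold change of -1.68 ± 0.40 (SE; adjusted p = 0.0605). The members' median was -0.29, against -0.09 for all genes, and 21 members had an unadjusted p under 0.05 (12.9% of all genes). DESeq2 called 9 members (Stxbp5l among them at -1.59, adjusted p = 0.00206, beside 5.73% of all genes) and limma 7 (beside 1.9%), with Sv2b, Synpr, Nsf, Doc2b and Synpo among them in both.

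Between DG and VIP, 3 of 92 members were higher in DG, beside 0.674% of all genes: Nsf, Syna and Stxbp6. Nsf, at chr11:103821782-103954056, stood at 9.36, 9.50 and 9.81 in DG and at 5.42, 5.99, 6.88, 7.12, 7.28 and 7.83 in VIP, without overlap. Its log2 fold change was 2.40 ± 0.47 (SE; adjusted p = 0.0140). Stxbp6, or amisyn, at chr12:44852484-45074709, stood at 2.97, 5.50 and 5.88 in DG and between 0.82 and 3.08 in VIP, so that the lowest DG mouse overlapped, with a log2 fold change of 5.12 ± 1.18 (SE; adjusted p = 0.0451). Syna, which encodes syncytin-A, a fusogen of the placenta, had a count of 0 in all VIP sums and 5281 pooled over DG (adjusted p = 0.0448). Without the PROX1- VIP sums none of the 3 was called by edgeR, beside 0.398% of all genes: the log2 fold change of Nsf was then 2.05 (adjusted p = 0.0596), that of Stxbp6 was 5.21 (adjusted p = 0.142), and the adjusted p for Syna was 0.132. With all 6 VIP mice, 17 members had an unadjusted p under 0.05 (12.2% of all genes), and Sv2c (adjusted p = 0.0850) was the nearest to the threshold. DESeq2 called 9 (beside 5.24% of all genes) and limma 6 (beside 1.6%), with Nsf, Stxbp6, Synpo and Syt7 among them in both.

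All FOS- sums of CA3 and Sub came from mice that also gave a CA1 sum: 3 mice gave both CA3 and CA1 and 5 both Sub and CA1. For CA3 edgeR called 0 members, beside 0% of all genes, and 6 had an unadjusted p under 0.05 (6.13% of all genes), led by Syt1 with a log2 fold change of 0.68 ± 0.23 (SE; adjusted p = 0.790), Stxbp5 and Syna. DESeq2 called 1 member (Stx19, beside 2.33% of all genes) and limma 1 (Syna, beside 0.826%). For Sub edgeR called 0 members, beside 0.012% of all genes, with 12 at an unadjusted p under 0.05 (9.65% of all genes). The smallest p was that of Syt4 (log2 fold change 1.04 ± 0.31, SE; adjusted p = 0.365), a synaptotagmin induced by activity, whose level was 7.78 in Sub and 6.19 in CA1. Rims3 and Rab37 followed. DESeq2 called 5 members, Syt4 among them (beside 3.06% of all genes), and limma 1 (Sytl2, beside 0.174%). With the mouse as a block over the mice that gave both types, edgeR called 0 of 82 members for CA3 and 0 of 87 for Sub, each beside 0% of all genes, with 6 and 8 at an unadjusted p under 0.05 (5.08% and 5.63% of all genes). The blocked log2 fold change was 0.60 for Syt1 in CA3 and 0.92 for Syt4 in Sub.

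In CA1, FOS+ nuclei at 1 h were set against FOS- nuclei to ask what differed with recent activity. EdgeR called 0 of 87 members, beside 0% of all genes, and 5 had an unadjusted p under 0.05, with 4.34% of all genes. Syt4 led them. From FOS- to FOS+ its level went from 5.72 to 8.26, from 7.40 to 8.64 and from 6.38 to 8.00 in the 3 mice, higher in each, with a log2 fold change of 1.33 ± 0.32 (SE; unadjusted p = 0.00267, adjusted p = 1). Snap25 was also higher in each mouse, from 9.09 to 10.09, 9.98 to 10.41 and 9.15 to 10.64 (0.88 ± 0.31, SE; unadjusted p = 0.0205, adjusted p = 1). Stx6 followed. DESeq2 called 0 members, beside 1.56% of all genes, and limma 0, beside 0%. Bsn and Syn1 were also higher in all 3 mice. Of 77 members with a mean level above 1 in either kind of nuclei, 16 were higher in FOS+ nuclei of every mouse, beside 13.9% of all such genes, and 11 lower, beside 14.5%. The median difference was 0.09 for the members and -0.04 for all such genes.

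FOS- CA1 nuclei of the NE mice did not differ from HC nuclei by edgeR: 0 of 87 members and 0% of all genes were called. At an unadjusted p under 0.05 stood 3 members (5.03% of all genes), Synb, Rab35 and Sv2b, the last with a log2 fold change of 1.18 ± 0.50 (SE; adjusted p = 0.940). DESeq2 called 2 (Rab35 and Synb, beside 1.8% of all genes) and limma 0 (beside 0%).

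In VIP nuclei edgeR likewise called 0 of 86 members between FOS+ and FOS-, beside 0% of all genes. At an unadjusted p under 0.05 stood 6 (4.84% of all genes), led by Synpo and Syt6, both near 0 in FOS- nuclei, and Syt1 (log2 fold change 0.94 ± 0.32, SE; adjusted p = 0.971). DESeq2 called 1 (Synpo, beside 1.18% of all genes) and limma 0 (beside 0%). Between FOS- nuclei of NE mice and HC, edgeR called 0 members and 0% of genes with 4 at an unadjusted p under 0.05 (Sytl2, Synpo, Syt6 and Syne2; 6.06% of all genes), DESeq2 2 (Synpo and Sytl2, beside 2.15%) and limma 0 (beside 0%). Without the PROX1- sums edgeR called 0 of 85 members in both comparisons, beside 0% of all genes, with 6 at an unadjusted p under 0.05 for FOS+ against FOS- (5.6% of all genes) and 7 for FOS- against HC (4.94%). In the 2 mice with both kinds of nuclei, neither of them with PROX1- sums, 28 of 69 members with a mean level above 1 were higher in FOS+ nuclei of both, beside 29.8% of all such genes, and 7 lower, beside 24%. The median difference was 0.36 for the members and 0.06 for all such genes. Vamp2 was higher by 1.96 and 4.10 and Snap25 by 0.62 and 2.54, and FOS+ VIP nuclei had higher median totals (599311 counts against 344915). Markers of the cell type moved in the same mice: from FOS- to FOS+ Gad1 went from 6.73 to 9.24 and from 6.86 to 8.88, and Htr3a from 6.51 to 9.43 and from 3.91 to 7.63, while Vip went from 12.06 to 7.04 and from 11.70 to 10.16. The part of depth or of these markers in the higher members was not tested.

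In DG, the members that edgeR called against HC were Synpo and Syne1, both higher after NE, and neither acts in vesicle release. DESeq2 and limma called others too, release genes among them. Synpo encodes the actin-binding protein of the spine apparatus, and Syne1 (chr10:5020917-5551482) a nesprin of the nuclear envelope. Synpo stood at 3.75 and 4.32 in HC, 5.30 in FOS- and 10.06 in FOS+ nuclei at 1 h, 10.18 and 9.85 at 4 h, and 7.22, 8.07, 8.65 and 8.87 at 5 h. Every NE value lay above both HC values. Syne1 stood at 6.58 and 7.38 in HC, 6.85 in FOS- and 8.16 in FOS+ nuclei at 1 h, 9.28 and 8.52 at 4 h, and 7.66, 7.93, 8.71 and 8.76 at 5 h.

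The DG groups were tested together by edgeR over 24405 genes, 101 of them members. FOS- and FOS+ nuclei at 1 h (27 and 26) came from 1 mouse, so each arm was 1 sum and the spread was taken from the other groups. A difference between these sums has no replicate check and compares the nuclei of that mouse. Its library date was not that of the HC mice, so exposure, mouse and date cannot be told apart against HC. In that fit 1 member passed between FOS+ and FOS- nuclei, Synpo (log2 fold change 3.31 ± 0.55, SE; adjusted p = 0.0286), beside 0.0451% of all genes. Unadjusted p under 0.05 was reached by 4 members (3.02% of all genes), including Syne1 (1.69 ± 0.45, SE; adjusted p = 0.549) and Stxbp5l (2.04 ± 0.56, SE; adjusted p = 0.582), whose level was 6.36 in FOS- and 8.88 in FOS+ nuclei. DESeq2 called both (adjusted p = 0.0236 and 0.0181) among 7 members, beside 4.33% of all genes, and limma called Synpo alone, beside 1.09%. FOS+ nuclei against HC again called Synpo alone (5.21 ± 0.45, SE; adjusted p = 3.63e-06), beside 0.27% of all genes, with 9 members at an unadjusted p under 0.05 (5.9% of all genes), next Stxbp5l (1.85 ± 0.45, SE; adjusted p = 0.12) and Syne1 (1.43 ± 0.36, SE; adjusted p = 0.161). DESeq2 called 9, beside 7.27%, among them Stxbp3, Stx4a, Stxbp5l and Unc13d with higher and Syt14 with lower values, and limma 2, Synpo and Pclo, beside 5.24%. For FOS- nuclei against HC edgeR called 0 members (beside 0.0041% of genes; 4 at an unadjusted p under 0.05, as 2.8% of genes, Synpo at 1.89 ± 0.42, SE, adjusted p = 0.656, then Stxbp3 and Stx4a), DESeq2 3 (Sv2b, Synpo and Unc13c, beside 2.52%) and limma 0 (beside 0.316%). For Sv2b and Unc13c the DESeq2 calls of FOS- nuclei against HC rest on near 0 counts in a group. Syt7 stood at 4.32 in FOS- and 2.48 in FOS+ nuclei, and Pclo at 3.29 and 1.63. Neither passed between these groups by any of the tools, while FOS+ nuclei against HC gave Pclo a log2 difference of -2.99 by limma (adjusted p = 0.0145).

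At the later times all nuclei were ARC+ and of other mice and library dates than HC, so time, ARC selection, mouse and date cannot be told apart in a comparison with HC. At 4 h 2 of 101 members were higher than in HC, beside 0.246% of all genes: Synpo (log2 fold change 4.93 ± 0.42, SE; adjusted p = 2.9e-06) and Syne1 (2.18 ± 0.32, SE; adjusted p = 0.00209). At 5 h the same 2 genes were called, beside 0.262% of all genes: Synpo (3.33 ± 0.37, SE; adjusted p = 0.000109) and Syne1 (1.55 ± 0.29, SE; adjusted p = 0.0219). Limma called Syne1 at 4 h but not at 5 h. Without HC replicate 6, which left 1 HC mouse, Syne1 lost its call at both times (adjusted p = 0.096 and 0.341) with log2 fold changes of 2.02 and 1.38. Stxbp3, a Munc18 protein, came next at both times (adjusted p = 0.051 and 0.0547). Members with an unadjusted p under 0.05 numbered 12 at 4 h (5.58% of all genes) and 16 at 5 h (10.3%). DESeq2 called 6 at 4 h, all higher and Stxbp3 and Stx4a among them (beside 4.14% of all genes), and 15 at 5 h (beside 8.14%). Those at 5 h included Stxbp3, Stx4a, Stx6, Rims4, Unc13c and Unc13d with higher and Synpr, Syp, Vamp2 and Sv2b with lower values. Of these, Unc13c and Sv2b had near 0 counts in a group, so their calls do not show a change in release genes. Rims4 had a mean level of at most 0.66 in any FOS- cell type of the first table. Limma called 8 at 4 h, 2 higher and 6 lower (beside 5.83%). Pclo, the Piccolo gene, stood at 4.33 and 4.92 in HC, at 2.03 and 1.23 at 4 h and between 0.83 and 2.62 at 5 h, without overlap. Its log2 fold change on summed counts at 4 h was -1.44 ± 0.63 (SE; adjusted p = 0.853) by edgeR, while limma on the mean levels called it lower (-3.00; adjusted p = 0.00388).

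The 5 h mice fell into 2 library dates, and some vesicle genes were lower in both mice of the later date. Syp stood at 5.54 and 7.50 in replicates 1 and 2 and at 3.71 and 2.12 in replicates 3 and 4 of the later date, against 7.75 and 9.36 in HC. Vamp2 stood at 4.35 and 4.52 against 1.38 and 1.83 (HC 5.64 and 4.78), and Nsf at 9.00 and 8.47 against 7.14 and 7.49 (HC 9.50 and 9.81). Synpr stood at 7.57 and 6.73 against 4.59 and 3.89 (HC 8.26 and 9.63). Each of these genes was lower in both later-date mice than in both earlier ones. Snap25 was not: its 4 values were 9.29, 9.13, 10.18 and 9.47. An order of 2 mice against 2 arises often without any difference. The shares of members and of all genes in this order are not given, so these genes stand without that background. By edgeR Synpr had a log2 fold change of -1.66 ± 0.36 (SE; adjusted p = 0.0557) and Syp of -1.65 ± 0.59 (SE; adjusted p = 0.363). On the same sums DESeq2 called Synpr (-1.80; adjusted p = 0.000268), Syp (-1.85; adjusted p = 0.0437) and Vamp2 (-2.10; adjusted p = 0.0358) lower.

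With limma on the mean levels per mouse, in which each nucleus of a mouse counts alike, 22 of 72 members passed at 5 h (3 higher and 19 lower), beside 14.7% of all genes. Synpo, Synb and Synj1 were higher, and among those lower were Syp (-3.84; adjusted p = 0.00857), Synpr (-3.25; adjusted p = 0.00913), Pclo (-2.78; adjusted p = 0.000731) and Nsf (-1.63; adjusted p = 0.0315). Without the later-date mice limma called 9 of 73 (3 higher and 6 lower), beside 8.85%. The 3 glutamatergic markers summed to 2023 and 2071 CPM in the earlier 5 h mice, to 512 and 144 in the later ones and to 1461 and 2990 in HC. Camk2a was the most abundant in each, and 1 of the 3 was at 0 in both later-date mice and in HC replicate 6. Later-date nuclei had medians of 1555742 and 1776118 counts but 4209 and 4249 genes, against 381170 and 350943 counts and 5552 and 5437 genes in the earlier ones. The part of these differences in the lower vesicle genes was not tested.

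**Figure D3:**
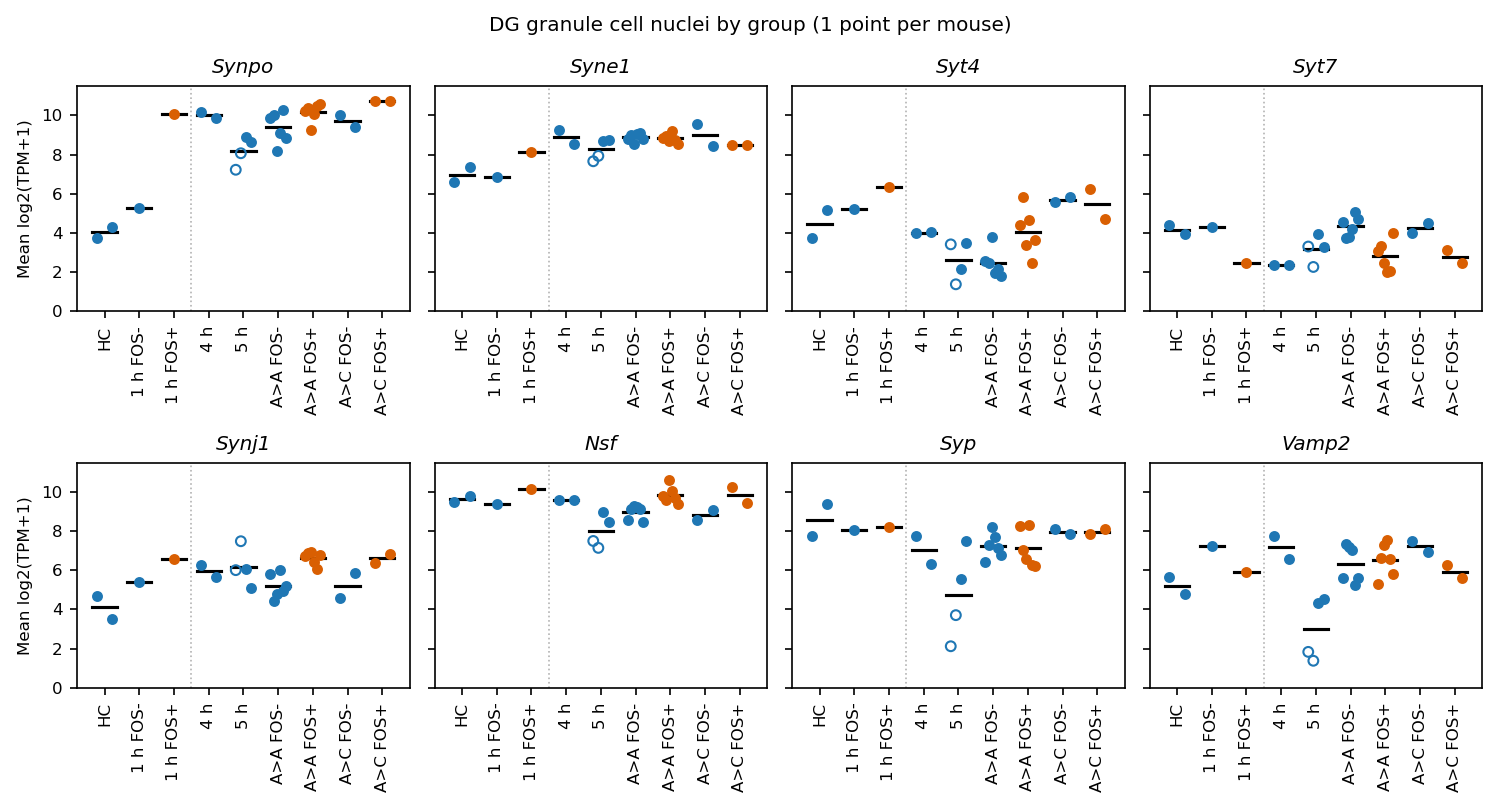
Level (mean log2(TPM + 1), vertical axes) of 8 members per mouse in DG groups of both deposited tables, which a dotted line separates; orange marks FOS+ groups, open circles the 2 mice of the later library date at 5 h, and bars the means. Synpo and Syne1 lie above HC at 4 h and 5 h, and Syp and Vamp2 are lowest in the open circles.

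The second exposure asked what set ARC+ nuclei with FOS, a mix of newly and again active neurons, apart from ARC+ nuclei without it. A>A mice gave 6 sums each, with 4 mice in both. Those with FOS+ sums alone (replicates 1 and 2) and with FOS- sums alone (replicates 3 and 4) were of different library dates. For these mice FOS, mouse and date cannot be told apart. Their median totals were 767842.5 and 807527.5 counts in FOS+ and 2694302.5 and 2289894.5 in FOS- nuclei. Between FOS+ and FOS- nuclei edgeR called 0 of 101 members, beside 0.041% of all genes. At an unadjusted p under 0.05 stood 12 members, with 15.4% of all genes. DESeq2 called 4 (Rab32, Rab39, Rab3c and Syt2, beside 3.58%) and limma 1 (Syt7, beside 2.81%). Rab32 and Rab39 had near 0 counts in a group. The smallest unadjusted p values belonged to Syt2 and Rab32, both near 0, and to Syt4.

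Syt4 ranged from 1.82 through a median of 2.29 to 3.77 in FOS- and from 2.47 through 4.02 to 5.82 in FOS+ nuclei, with a log2 fold change of 1.49 ± 0.50 (SE; unadjusted p = 0.00720, adjusted p = 0.261). The groups overlapped, and 3 of 4 paired mice were higher in FOS+. Syt7, at chr19:10389090-10453180, went the other way, from 3.75 through 4.37 to 5.06 in FOS- and from 1.99 through 2.77 to 3.98 in FOS+ nuclei. It was lower in FOS+ in 4 of 4 paired mice, by edgeR -1.19 ± 0.42 (SE; unadjusted p = 0.0111, adjusted p = 0.261) and by limma -1.52 (adjusted p = 0.0278). The same order held at 1 h, in 1 mouse, and in A>C, where Syt7 stood at 4.01 and 4.49 in FOS- and at 3.11 and 2.48 in FOS+ nuclei. In A>C the FOS groups were of different mice and library dates, so neither setting is a replicate check. Syt7 was chosen after its values were seen, and the share of all genes in this order is not given.

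In A>A, 3 of the 57 members with a level above 1 were higher in all FOS+ sums than in all FOS- sums, Nsf and Synj1 among them, beside 2.1% of such genes. No member was lower in all of them (1.37% of genes). Nsf ranged from 8.47 to 9.30 in FOS- and from 9.39 to 10.60 in FOS+ nuclei, and Synj1, the synaptojanin that strips clathrin from recycled vesicles, from 4.45 to 6.00 and from 6.06 to 6.95. On summed counts Nsf had a log2 fold change of 0.48 ± 0.22 (SE; adjusted p = 0.311) and Synj1 of 0.35 ± 0.33 (SE; adjusted p = 0.748). Over the 4 paired mice alone, 8 of 56 members with a mean level above 1 were higher in FOS+ nuclei of each, beside 9.31% of such genes, and 6 lower, beside 17.8%.

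In A>C mice FOS+ and FOS- sums came from different mice (2 each), of different library dates, so FOS, mouse and date cannot be told apart. EdgeR called 0 of 101 members, beside 0% of all genes, with 3 at an unadjusted p under 0.05 (Stxbp5l, Synpo and Synj1; 4.46% of all genes). DESeq2 called 2, Rab31 and Unc13c, both with near 0 counts in a group, beside 4.63%, and limma 0, beside 0.744%. Stxbp5l stood at 6.46 and 7.00 in FOS- and at 7.89 and 7.72 in FOS+ nuclei, with a log2 fold change of 1.16 ± 0.38 (SE; adjusted p = 0.899). Nsf was again higher in FOS+ nuclei, at 10.23 and 9.42 against 8.58 and 9.07. Synpo, which was high in all re-exposed groups (8.20 to 10.74), had an unadjusted p of 0.0126.

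Whether the second environment mattered was asked by comparing A>A FOS+ with A>C FOS+ nuclei. The A>C mice were of 1 library date and the A>A mice of 3 others, so environment, mouse and date cannot be told apart. EdgeR called 0 of 101 members, beside 0% of all genes, with 2 at an unadjusted p under 0.05 (Stxbp5l and Syt2, with 4.94% of all genes; Synpr came next). DESeq2 called 3, Stxbp5l (-1.04; adjusted p = 0.0384), Rab31 and Unc13c, beside 4.73%, and limma 0, beside 0.0171%. Rab31 and Unc13c again had near 0 counts in a group. Stxbp5l ran from 4.87 to 7.76 in A>A, against 7.89 and 7.72 in A>C, with a log2 fold change of -0.99 ± 0.29 (SE; unadjusted p = 0.00308, adjusted p = 0.676).

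**Figure D4:**
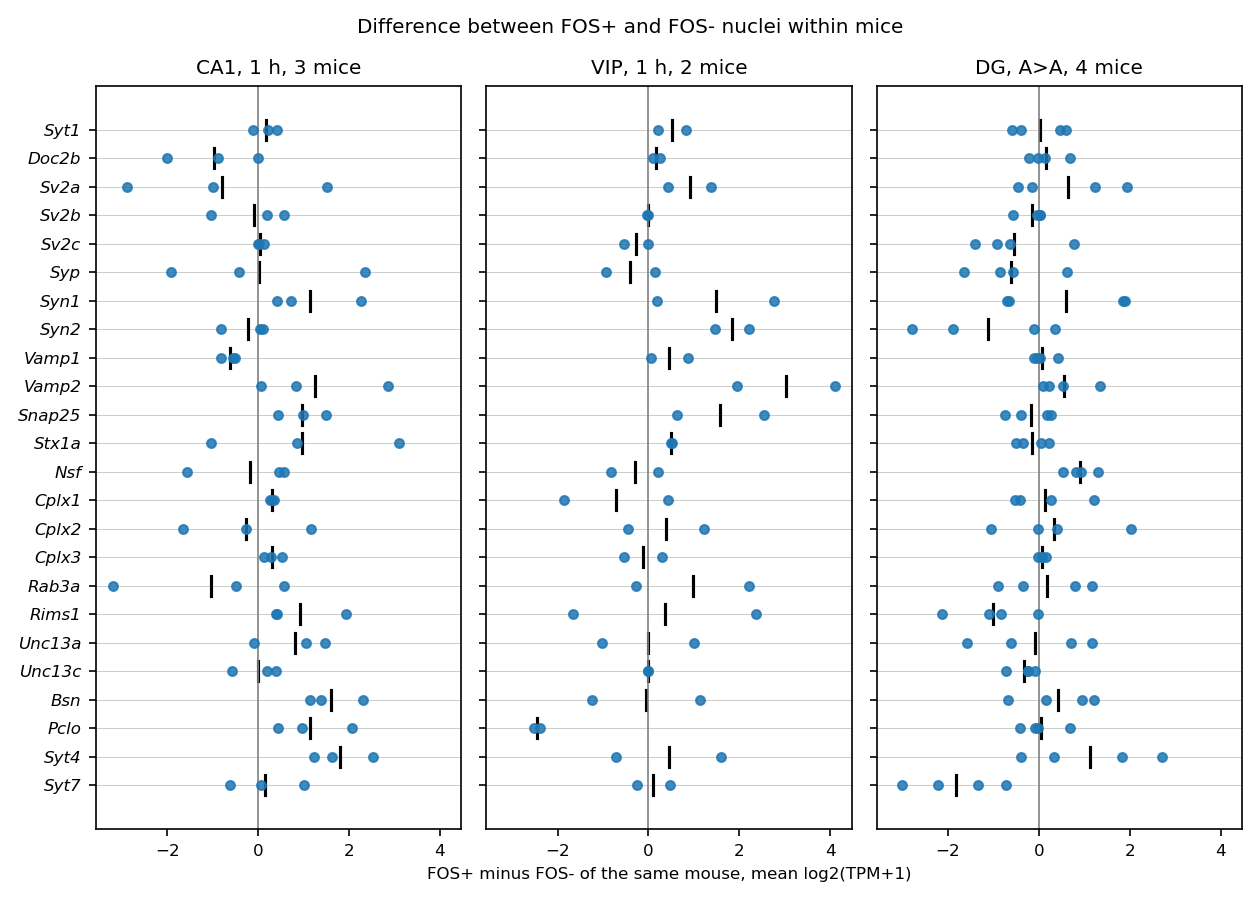
Difference in level (FOS+ minus FOS-, in log2(TPM + 1), horizontal axis) within each mouse for 24 members in CA1 (3 mice), VIP (2 mice) and DG of A>A mice (4 mice); points are mice and bars their mean. Syt4 and Snap25 lie above 0 in each CA1 mouse, while in A>A Syt7 lies below and Nsf above 0 in each mouse.

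Whether FOS+ and FOS- nuclei differed to unlike extents in DG, CA1 and VIP at 1 h was tested by an interaction over 21851 genes. DG entered with 1 sum each, so its tests have no replicate check. EdgeR called 0 of 101 members in each pair of cell types. For DG against CA1, 0.00458% of all genes were called and 1 member had an unadjusted p under 0.05, with 1.67% of all genes. DESeq2 called 2, beside 1.71%, and limma 0, beside 0.0413%. For DG against VIP the edgeR share was 0.00458% with 3 members under an unadjusted p of 0.05 (2.14% of all genes), DESeq2 called 3 (beside 2.4%) and limma 0 (beside 0.0482%). For CA1 against VIP it was 0% with 3 members (5.85% of all genes), DESeq2 called 2 (Rab35 and Synpo, beside 2.54%) and limma 0 (beside 0%). Without the PROX1- sums edgeR called 0 members for DG and for CA1 against VIP, beside 0.00457% and 0% of all genes, with 4 and 2 at an unadjusted p under 0.05 (2.8% and 5.27%). Syne1 and Rab35 followed Sv2b for DG against CA1, Rab35 and Stx12 for DG against VIP, and Synpo led Sv2b and Stxbp6 for CA1 against VIP. The smallest p for DG was that of Sv2b in both, whose level in DG FOS+ nuclei was 0.29 from 1 of 26 nuclei.

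A list of 40 genes of the vesicle cycle, chosen like the members with earlier results known, was read beside them. It included SNAPs, CAPS proteins, liprins, dynamins and vesicular transporters, and also Synpr, itself a member. Between VIP and CA1, 2 of 40 passed, beside 0.608% of all genes: Slc32a1, the vesicular GABA transporter, was higher in VIP (adjusted p = 0.0125) and Slc17a7 lower (adjusted p = 0.00141). Between DG and VIP 3 passed, beside 0.674%. Slc17a7 and the liprin Ppfia2 (log2 fold change 2.60; adjusted p = 0.00999) were higher in DG, and Slc32a1 was lower (adjusted p = 0.0457). Both transporters mark the split into GABA and glutamate neurons from which the types were drawn, so their calls were partly set by the grouping. Without the PROX1- sums Slc32a1 just missed the threshold between DG and VIP (adjusted p = 0.0504), and the other calls held. With sums of at least 5 nuclei it missed it in both comparisons (adjusted p = 0.215 against CA1 and 0.117 against DG). In the other 18 comparisons edgeR called 0 of the 37 to 40 tested, with 0 to 8 at an unadjusted p under 0.05, the most in A>A FOS+ against FOS- nuclei, where 15.4% of all genes did so.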

How the data were processed

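RNA of single nuclei was read by SmartSeq2. Reads were trimmed by the authors (Solexa-QA++), then aligned with Bowtie to mm10 and an Ensembl annotation (release not given in the sources used here), and estimated expression with RSEM. The deposited tables hold expected counts and log2(TPM + 1) values per gene and nucleus. Nuclei with at least 100000 aligned reads and 4000 genes above a log2 value of 1 were kept (818 of 912), and 35 FOS- HC and 1 h nuclei with an Arc level above 2.5 were left out. Genes without a value in a table (30 and 23) were dropped.

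The replicate was the mouse, defined by exposure and mouse number in the labels, and in the first table also by library date. In A>A, 2 mouse numbers each had nuclei of 2 library dates, which were merged. Keeping the dates apart was an alternative. Expected counts were summed over at least 2 nuclei per mouse and group, rounded to whole numbers and tested with edgeR 4.0.16 (R 4.3.3; quasi-likelihood, Benjamini-Hochberg adjustment over all genes, threshold 0.05). Alternatives were DESeq2 1.42.0, limma 3.58.1 on mean log2(TPM + 1) per mouse, DESeq2 size factors, other filters, HC nuclei alone, a replicate block, and leaving out each mouse. Leaving out the later-date 5 h mice, the PROX1- VIP sums or sums under 5 nuclei, and a block for CA3 and Sub against CA1, were chosen after seeing the data. Tests were tried on simulated data. Levels used Python 3.11.15 and pandas 2.3.3.

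Members and lists were chosen with earlier results of these data known. Named with values were members fixed to cover the roles, members past the threshold (at most 12 a direction) and, where fewer than 3 passed, the 3 with the smallest p. Others named, such as Syt7 and Synj1 in A>A, Synpr, Rab3b, Syt5, Syt10, Syt11 and Syt2, were chosen after their values were seen. Some members and markers are not reported here. FOS+ and FOS- nuclei of the same number come from the same mouse by the labels. Their deviations from the group means correlated at 0.0383 to 0.0684 in CA1, 0.00373 and 0.0257 in VIP and 0.0135 to 0.0911 in A>A. A mouse could give several sums, of other cell types or FOS states, but no more than 1 to a group. Intervals cover the spread between these mice only. Promoters are from RefSeq and gene positions from GENCODE vM21, both on GRCm38.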

Additional observations from a re-analysis of the deposited data

Results flagged for a closer look

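Over 46 genes and the DG groups of 4 mice (5 h) and 6 mice (A>A FOS- and FOS+), 130 sets of values were tested, and 13 held a mouse far from the rest of its group by Dixon's test, of which chance flags about 1 in 20. That rate does not apply to the 4 sets below in which all other mice were listed at 0, since any value above 0 then stands apart. All values are mean log2(TPM + 1) in DG nuclei.

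Among the 5 h mice, replicate 3, of the later library date, was low for Stxbp5 (0.796, others 3.27 to 3.42) and for Syt1 (7.27, others 8.48 to 8.69), and replicate 2 held Syt6 at 0.143 where the others were listed at 0.

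In A>A FOS- nuclei all the outlying values belonged to replicate 5: Syt4 at 3.77 (others 1.82 to 2.55), Unc13c at 0.728 (others 0.233 to 0.315), Syt6 at 0.263 (others listed at 0) and Rims3 at 0.102 (others 0 to 0.0163). In A>A FOS+ nuclei replicate 5 was low for Synpo (9.25, others 10.08 to 10.56) and high for Sytl2 (0.651, others 0 to 0.118). Replicate 6 was high for Sv2b (0.342, others 0 to 0.056) and Unc13c (0.195, others listed at 0), replicate 1 for Syna (1.05, others 0 to 0.392) and replicate 2 for Rims3 (0.371, others listed at 0).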

How the results depend on the processing

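The shares of all genes called by DESeq2 and limma stand in the text with each comparison. Under DESeq2 the members called numbered 5 for DG against CA1, 9 for VIP against CA1, 9 for DG against VIP, 1 for CA3 against CA1 and 5 for Sub against CA1. It called 2 for CA1 FOS- against HC, 1 for VIP FOS+ against FOS-, 2 for VIP FOS- against HC, and in DG 7 for 1 h FOS+ against FOS-, 3 for 1 h FOS- against HC, 9 for 1 h FOS+ against HC, 6 at 4 h, 15 at 5 h, 4 in A>A, 2 in A>C and 3 for A>A against A>C. For the interactions it called 2 for DG against CA1, 3 for DG against VIP and 2 for CA1 against VIP. Some of the DESeq2 calls, such as those of Rab31, Unc13c and Sv2b within DG, were of genes with near 0 counts in a group. Limma called 3 for DG against CA1, 7 for VIP against CA1, 6 for DG against VIP, 1 for CA3, 1 for Sub, 2 for DG FOS+ against HC, 8 at 4 h, 22 at 5 h (9 without the later-date mice) 1 for DG FOS+ against FOS- and 1 in A>A. With HC nuclei alone edgeR called 0 for DG against CA1, 0 for VIP against CA1 and 0 for DG against VIP. Without a filter on low counts it called 1 for VIP against CA1 and 1 for DG against VIP, with sums of at least 5 nuclei 1 and 0, and without the PROX1- VIP sums 1 and 0. The shares of all genes called are not given for HC nuclei alone, for no filter or for sums of at least 5 nuclei. Without the PROX1- VIP sums edgeR called 0 in the other VIP comparisons as well. A stricter filter gave 3 for DG FOS+ against HC, with Syne1 and Stxbp5l added (beside 0.769% of all genes), and 4 at 5 h, with Stxbp3 and Synpr added (beside 0.848%).

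Leaving out each mouse in turn gave 1 to 2 members for DG against CA1, 1 to 3 for VIP against CA1, 0 to 2 for DG against VIP, 1 to 2 for DG FOS+ against HC, 0 to 1 for DG FOS- against HC, 1 to 3 at 4 h and 1 to 3 at 5 h, and 0 in the other comparisons in which it was run. The shares of all genes called in these fits are not given, so these counts stand without that background. Nsf in DG against VIP lost its call without 1 h replicate 1 or HC replicates 4, 5 or 6. In the same comparison Syna was called in 4 of 18 alternatives, losing its call without 1 h replicates 1, 2, 4 or 5 or HC replicates 2, 3, 4, 5 or 6, and Stxbp6 in 7 of 18, losing it without 1 h replicates 1, 2, 4 or 5 or HC replicates 3, 4 or 5. Synj2 in VIP against CA1 was called in 6 of 19. Synpo kept its call and direction at 4 h and 5 h in all alternatives run. Its calls at 1 h rest on an arm of 1 mouse, which no alternative can check. No called value changed sign. With the mouse as a replicate block, the FOS comparisons of CA1, of VIP and of A>A each called 0 members, as did CA3 and Sub against CA1 over the mice with both types, and the pairing changed no call. Keeping the 2 library dates of A>A mice 3 and 4 apart gave 0 members for A>A FOS+ against FOS- and 0 for A>A against A>C. No block could be fitted for DG at 1 h, with 1 mouse, or for A>C, whose FOS groups share no mouse. Of the alternatives for levels, 82 left the level the same and 62 moved it. Of the alternatives for fold changes of named members, 3486 kept direction and side of the threshold, 242 moved, 60 passed the threshold only under the alternative and 50 lost it.

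Groups of 1 to 3 mice, FOS- CA1 and VIP sums of 2 to 13 nuclei, and genes near 0 limit what these sums can show, and a difference that missed the threshold is not shown to be absent.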
